A study of Homo sapiens with 9 samples.

Results

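Mitochondrial ribosomal protein genes were compared between human breast cancer xenografts grown with and without mesenchymal stem cells (MSC). The genes were taken by symbol, as every row named MRPL or MRPS followed by a number and at most 1 further letter. This rule found 76 of the 21619 genes in the tables, 47 of them named for the large subunit (MRPL) and 29 for the small subunit (MRPS). The rule itself reads symbols only. All 76 passed the filter on low counts, and the lowest count of any of them in any tumour was 264.

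Mitochondria carry their own ribosome, which translates the few messenger RNAs made from mitochondrial DNA, all of them for membrane subunits of the respiratory chain and ATP synthase. Its ribosomal RNAs come from mitochondrial DNA, but its proteins are encoded in the nucleus, translated on cytosolic ribosomes and imported. The small subunit binds the messenger RNA and reads its codons, and the large subunit forms the peptide bond, receives translation factors at a flexible stalk and releases the chain through an exit tunnel.

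The tumours grew from cells of the human line MDA-MB-231, which derives from a triple-negative breast cancer. These cells carried ribosomal protein L10a fused to EGFP (a green fluorescent protein) in all 9 tumours. They were placed in the mammary fat pad of mice, either alone or with MSC of human bone marrow at 1 to 1, and tumours were taken after 3 weeks. Tagged polysomes were pulled from whole tumour lysates with anti-GFP beads (translating ribosome affinity purification), and their RNA was sequenced. The group with MSC held 5 tumours from different mice (M1, M6, M7, M10 and M15), and the group without MSC held 4 (A9, A11, A12 and A13). What is counted for each gene here is therefore nuclear-encoded messenger RNA on tagged cytosolic ribosomes, not the mitochondrial ribosome itself. Without a library of total tumour RNA, RNA abundance and ribosome association cannot be told apart, and neither can fewer cells of a type and less RNA per cell.

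The depth of the libraries was 29749909 to 50639082 gene counts for tumours with MSC, and 24616792 to 65275226 for those without. The tables held no genes of mitochondrial DNA itself. The 7 markers of the cancer line were all tested. They summed to 10376 to 16055 CPM (counts scaled to a common library total) with MSC and to 9519 to 10723 without. Whether the MSC also express them was not tested. Tumour M15 stood apart: its 8 fibroblast and MSC markers summed to 117 CPM, against 18.7 to 34.0 in the other tumours with MSC and 13.01 to 22.6 without, and its scaling factor (TMM) was 1.14 against 0.94 to 1.04 in the other 8. Of those 8 markers 5 were tested, and none was at 0 in all tumours of a group. The 5 immune markers, of which 2 were tested, summed to 137 to 208 CPM with MSC and 94.2 to 137 without, with CD3E at 0 in all tumours without MSC. The 5 endothelial markers, of which 2 were tested, summed to 4.91 to 7.26 CPM against 8.33 to 10.8. The part of these markers in the results was not tested. Below, CPM are scaled by TMM and their means are given ± SD (n = 5 with MSC, n = 4 without). Each log2 fold change is given ± SE, and a negative one means lower with MSC.

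Most mitochondrial ribosomal protein genes differed little between the groups, and those that changed were all lower with MSC. In edgeR's quasi-likelihood test with Benjamini-Hochberg adjustment over all 13458 genes tested, 6 of the 76 fell at an adjusted p under 0.05, none rose and 70 did not pass. Over all genes tested, 3.6% fell and 4.18% rose, 7.78% in either direction. The 6 were MRPS6, MRPL42, MRPL15, MRPL1, MRPL37 and MRPS28, with log2 fold changes from -0.60 to -0.35. At an unadjusted p under 0.05, 16 members were lower, against 11.8% of all genes, and 3 were higher (MRPL32, MRPS24 and MRPL4), against 12.8%. DESeq2 called 9 members lower and 0 higher, against 4.38% and 4.84% of all genes. Those DESeq2 shares are over 17747 genes, a larger set to which the filter on low counts was not applied.

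As a group the genes lay slightly below the rest. A negative log2 fold change was seen in 54 of the 76 (71.1%), against 48.9% of all genes tested, and the median was -0.08 against 0.01. The fold changes ran from -0.60 to 0.47, and their middle 50% lay between -0.19 and 0.02, with a median SE of 0.11. In 6 members, MRPL1, MRPL15, MRPL20, MRPL37, MRPL42 and MRPS6, every tumour with MSC was below every tumour without. The share of all genes with that separation was 4.87%, and no member had the opposite one, which 5.13% of all genes had.

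**Figure D1:**
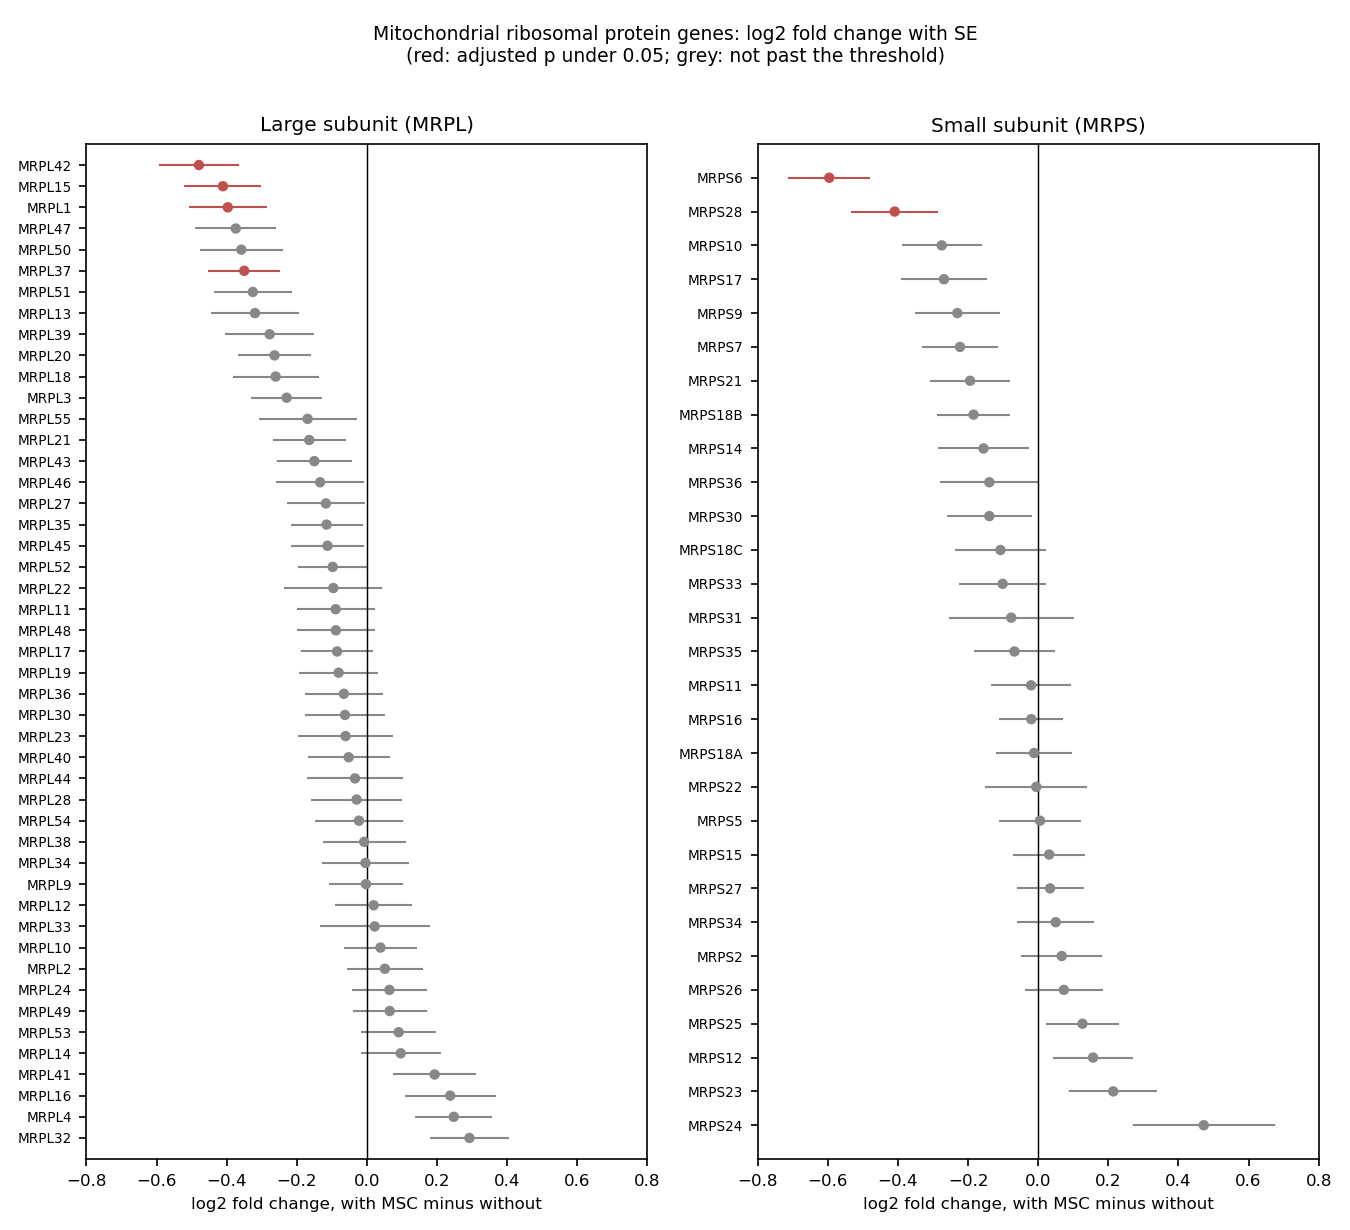
Log2 fold change (with MSC minus without) of each of the 76 mitochondrial ribosomal protein genes, points with bars of 1 SE, MRPL genes on the left and MRPS genes on the right; red marks an adjusted p under 0.05. The red points are the 6 genes that fell, from MRPS6 at -0.60 to MRPL37 at -0.35, and most grey points lie within 0.2 of 0.

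MRPS6 had the largest fall. It encodes bS6m, the counterpart of bacterial protein S6, which sits on the platform of the small subunit beside S18. With MSC it was at 164 CPM in M1, 158 in M6, 155 in M7, 147 in M10 and 122 in M15. Without MSC it was at 221 CPM in A9, 224 in A11, 270.0 in A12 and 186 in A13. The highest tumour with MSC was below the lowest without, so that the groups did not overlap. The means were 149 ± 16.4 and 225 ± 34.5 CPM, a log2 fold change of -0.60 ± 0.12 (adjusted p = 0.00632). Of the members, MRPS6 alone passed under all 18 other settings run, with log2 fold changes from -0.68 to -0.44 and a highest adjusted p of 0.0409.

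MRPS6 lies on chromosome 21 and has the same start in RefSeq (GRCh38.p14) as SLC5A3, a myo-inositol transporter, so that their promoter windows hold the same letters. The 100 bases before the start (chr21:34073478-34073577, plus strand) are shown because they precede the gene with the largest fall, with the GC box letters GGGCGG in capitals.
MRPS6 and SLC5A3: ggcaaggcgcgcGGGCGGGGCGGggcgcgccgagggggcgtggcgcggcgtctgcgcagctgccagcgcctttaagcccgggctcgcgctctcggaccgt
SLC5A3 was at 18.4 ± 4.84 CPM with MSC and 16.6 ± 1.77 without, a log2 fold change of 0.15 ± 0.17 that did not pass (adjusted p = 0.614). The genes behind these letters thus had log2 fold changes of opposite sign, but their difference was not tested. In GENCODE, 9.61% of the exonic bases of MRPS6 are also exon of SLC5A3 or AP000317.2 on the same strand. Reads of these genes may thus have been shared or dropped.

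MRPL42 had the next largest fall. It encodes mL42, a protein that mitochondrial ribosomes have and bacterial ones lack. It was at 125, 139, 149.9, 138 and 119 CPM in M1, M6, M7, M10 and M15. Without MSC it was at 224 CPM in A9, 164 in A11, 199 in A12 and 160.5 in A13. Again no tumour with MSC reached the lowest one without. The log2 fold change was -0.48 ± 0.11 (adjusted p = 0.0165), from means of 134 ± 12.1 and 187 ± 30.3 CPM. Without A12 the call was lost at a log2 fold change of -0.45 (adjusted p = 0.0649), and it was also lost without M1 and without A9.

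MRPL15, MRPL1 and MRPL37 completed the falls of the large subunit. MRPL15 encodes uL15m, a protein of the core of the subunit found in all ribosomes. It was at 133, 117, 137, 107 and 108 CPM in M1, M6, M7, M10 and M15, and at 154, 145, 187 and 155 CPM in A9, A11, A12 and A13. The groups did not overlap, and the log2 fold change was -0.41 ± 0.11 (adjusted p = 0.0279).

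MRPL1 encodes uL1m, the protein of the stalk beside which spent transfer RNA leaves. It was at 40.2, 43.3, 43.7, 36.3 and 33.2 CPM with MSC, in the same order of tumours, and at 55.7, 47.8, 54.7 and 48.8 CPM without. All 5 values with MSC were below all 4 without, for a log2 fold change of -0.40 ± 0.11 (adjusted p = 0.0364). MRPL37 encodes mL37, which bacterial ribosomes lack. It was at 139.5, 155, 134, 140.4 and 124 CPM with MSC and at 170.0, 178, 200.3 and 158 CPM without, with no overlap and a log2 fold change of -0.35 ± 0.10 (adjusted p = 0.0417).

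MRPS28, a small subunit protein, was the sixth gene that fell and the only one of them whose groups overlapped. It was at 34.4, 41.6, 34.5, 31.5 and 33.6 CPM with MSC and at 44.1, 44.8, 58.2 and 39.6 CPM without. Tumour M6 was above A13, and A12 was far above the other tumours. The log2 fold change was -0.41 ± 0.12 (adjusted p = 0.0467). In GENCODE release 29, 35.8% of its exonic bases are also exon of another gene on the same strand, so that reads of these genes may have been shared or dropped.

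The calls other than MRPS6 lay near the threshold and were lost when any of several tumours was left out, while the log2 fold changes remained negative: over all settings they ran from -0.55 to -0.29 for MRPL42, -0.46 to -0.29 for MRPL15, -0.44 to -0.22 for MRPL1, -0.40 to -0.25 for MRPL37 and -0.48 to -0.28 for MRPS28. The share of all genes called lower dropped with fewer tumours as well. Without M1 the members lower were MRPS6 and MRPL15, and without M10 they were MRPS6 and MRPL42, each against 1.44% of all genes. Without M15, 2 members remained lower, MRPL42 at -0.44 and MRPS6 at -0.53, against 2.26% of all genes. Without A12 (0.69% of all genes lower) MRPS6 was the only member lower, at -0.50, and without A9 (1.02%) it was again the only one, at -0.60. Without A13, 9 were lower, against 6.4% of all genes.

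**Figure D2:**
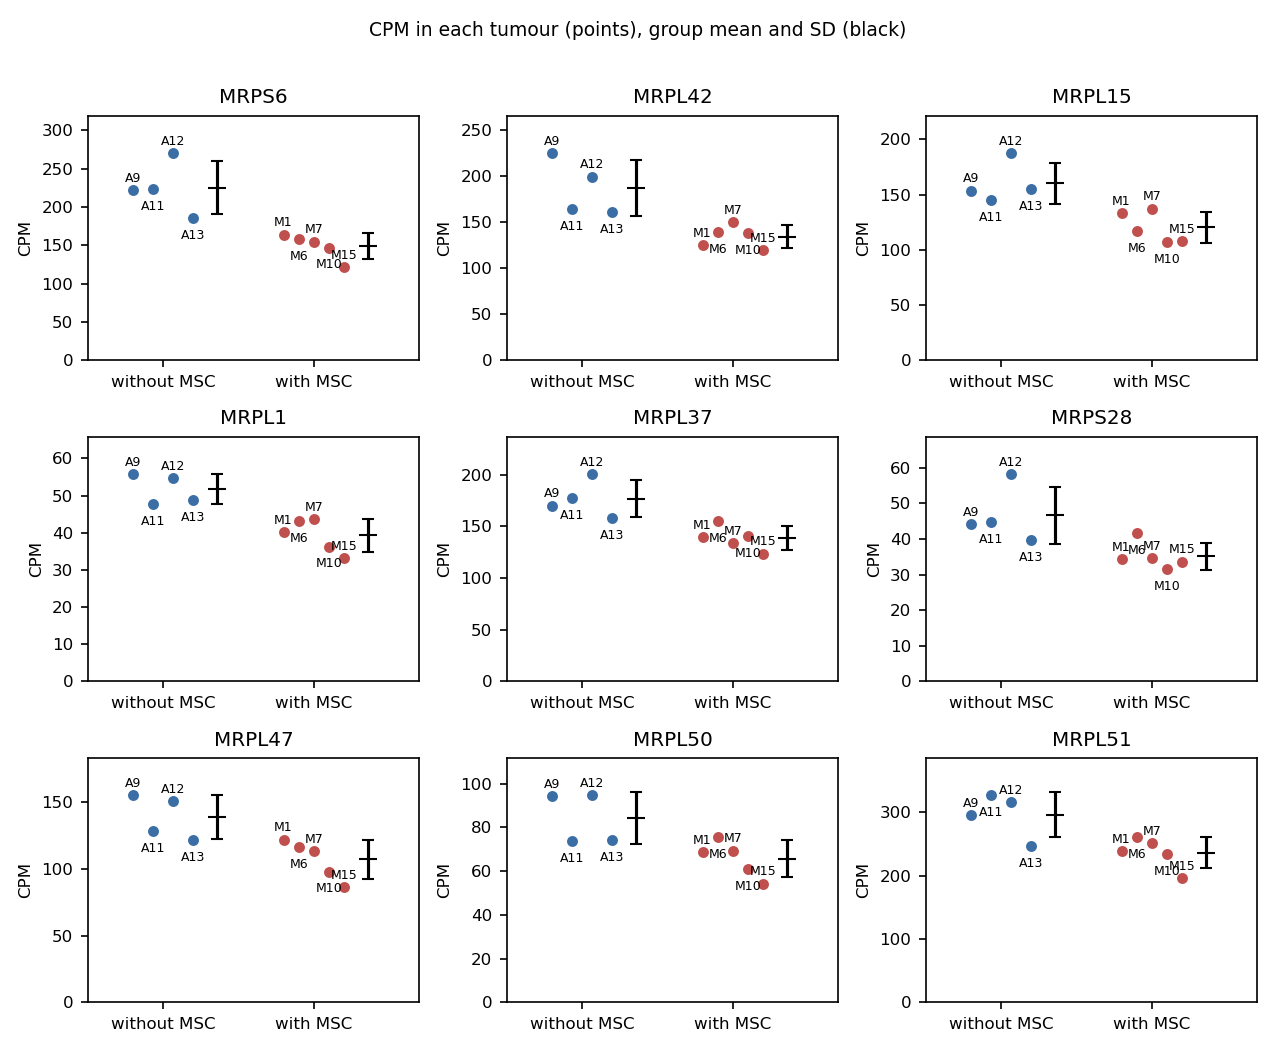
CPM of the 6 genes that fell and of MRPL47, MRPL50 and MRPL51, the next 3 by p, in each tumour (blue without MSC, red with MSC), with the group mean and SD in black. In MRPS6 the 5 red points, 122 to 164 CPM, lie below the 4 blue points, 186 to 270.0 CPM, and A12 is the highest tumour for MRPS6, MRPL15, MRPL37, MRPS28 and MRPL50.

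The next 3 genes were also of the large subunit and also lower, but did not pass. MRPL47 encodes uL29m, which lies at the mouth of the exit tunnel. It was at 122, 116, 113, 97.7 and 86.1 CPM with MSC and at 155, 128, 150.5 and 121 CPM without, so that M1 reached A13 (log2 -0.37 ± 0.12, adjusted p = 0.0509). MRPL50, which encodes the mitochondria-specific mL50, was at 54.3 to 75.7 CPM with MSC and at 73.8 to 94.7 CPM without (log2 -0.36 ± 0.12, adjusted p = 0.0637). MRPL51, which encodes mL51, was at 197 to 262 CPM with MSC and at 247 to 327 CPM without (log2 -0.33 ± 0.11, adjusted p = 0.0743). In all 3 the ranges of the groups overlapped, and M15 was the lowest tumour. Leaving out A13, or testing with DESeq2, brought all 3 past the threshold.

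Among small subunit genes, those next in order of p lay further from the threshold. MRPS10, the counterpart of bacterial S10 in the head of the subunit, was at 303 to 369.9 CPM with MSC and at 346 to 497 CPM without (log2 -0.28 ± 0.11, adjusted p = 0.140). MRPS17, which encodes uS17m, had a log2 fold change of -0.27 ± 0.12 (adjusted p = 0.180), and MRPS7, which encodes uS7m of the head, one of -0.22 ± 0.11 (adjusted p = 0.204). MRPL20, which encodes bL20m, was singled out after its values were seen because its groups did not overlap: the 5 tumours with MSC were at 88.2 to 112 CPM and the 4 without at 116 to 137 CPM. Its log2 fold change was -0.26 ± 0.10 and did not pass (adjusted p = 0.119).

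The 3 genes with the largest positive log2 fold changes did not pass the threshold. MRPS24, a small subunit gene, was at 40.2, 28.4, 32.5, 23.0 and 22.5 CPM in M1, M6, M7, M10 and M15 and at 21.9, 19.3, 13.4 and 29.5 CPM in A9, A11, A12 and A13. The ranges overlapped widely, M1 was the highest tumour and A12 the lowest, and the log2 fold change was 0.47 ± 0.20 (adjusted p = 0.158). Without A13 it passed at 0.68 (adjusted p = 0.0238). MRPS24 shares 23.2% of its exonic bases with a read-through transcript of the neighbouring gene URGCP.

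MRPL32 encodes bL32m, whose import into the matrix ends with a cut by the m-AAA protease before the protein joins the ribosome. It was at 76.0 to 92.3 CPM with MSC and at 55.7 to 77.2 CPM without (log2 0.29 ± 0.11, adjusted p = 0.113). With offsets for GC content and length it passed at 0.41 (adjusted p = 0.0305). MRPL4, which encodes uL4m of the tunnel wall, was at 0.25 ± 0.11 (adjusted p = 0.165). MRPL32 and MRPL4 were named after their values were seen.

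The members not described singly above or below, 30 of the large and 14 of the small subunit, did not pass. In the large subunit their log2 fold changes ran from -0.32 (MRPL13, uL13m) to 0.24 (MRPL16, uL16m), 23 of the 30 were negative and the smallest adjusted p was 0.121, for MRPL13. In the small subunit they ran from -0.19 (MRPS21, the counterpart of bacterial S21) to 0.21 (MRPS23, mS23), 6 of the 14 were negative and the smallest adjusted p was 0.304, for MRPS23. These 4 genes were named for their place at the ends of the range.

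Promoter windows in RefSeq (GRCh38.p14), 250 bases before to 50 after the start, were matched by symbol for 67 of the 76 genes. Short motifs of factors known to act on mitochondrial genes were counted in them on both strands. The letters AAGATGGC, those of the YY1 motif, were in 20 windows (29.9%), against 3.03% of all 27305 windows and 5.53% of the 9383 windows of tested genes. The letters CCGGAAG, those of ETS factors such as GABP, were in 28 (41.8%), against 10.7% of all windows and 18.8% of those of tested genes. The YY1 letters were in 12 of 40 MRPL windows and 8 of 27 MRPS windows, and the ETS letters in 16 and 12.

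The other motifs were closer to their share among tested genes. The NRF1 letters, GCGCA and GCGC with any single base between them, were in 7 windows (10.4%), against 11.5% of tested genes. The E-box CACGTG of the MYC family was in 6 (8.96%), against 10.1%, and the GC box GGGCGG in 41 (61.2%), against 70.1%. MRPS6 held 9 matches of the GC box.

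The YY1 letters are shown, in capitals with 8 bases on either side, for the genes named above for their place in the order of p, since members with log2 fold changes of both signs carry them. The first 4 are large subunit genes and the last 3 small subunit genes.
MRPL42: attgaaacAAGATGGCgggttcgt
MRPL47: aggatgtgGCCATCTTaagtgagg
MRPL50: tctcatcgAAGATGGCggcgcgat
MRPL51: taaggcccAAGATGGCtgtcttcg
MRPS10: ggaccggcAAGATGGCggcgcgga
MRPS7: ggccagccAAGATGGCtgcccccg
MRPS24: cttggcccAAGATGGCggcctccg
They lie at chr12:93467514-93467537, chr3:179604715-179604738, chr9:101398580-101398603, chr12:6493226-6493249, chr6:42217837-42217860, chr17:75261890-75261913 and chr7:43869483-43869506. Those of MRPL42 and MRPS7 are on the plus strand and the other 5 on the minus strand, and MRPL47 has the letters as their reverse complement. The letters include an ATG; whether it is the start codon was not tested. Of these genes MRPL42 fell, and MRPS24 had a positive fold change. The median log2 fold change was -0.12 in the 20 genes with the letters and -0.03 in the 47 without, given as a description only. Of the 7 genes, MRPL47 and MRPS10 also held 1 match of the ETS letters each, and MRPL51 held 2, of which 1 is shown.
MRPL47: ttgagacgCCGGAAGtgacgcta
MRPL51: caggcggaCCGGAAGcactgagg
MRPS10: ctgtaaccCCGGAAGcaatcctg
These are at chr3:179604663-179604685, chr12:6493352-6493374 and chr6:42217869-42217891, on the minus strand. The median log2 fold change was -0.06 in the 28 genes with the ETS letters and -0.08 in the others.

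Large and small subunit genes differed little from each other in their response. Among all genes tested 3.6% fell, 48.9% had a negative log2 fold change and the median was 0.01. In the large subunit 4 of 47 genes fell (8.51%), 35 had a negative log2 fold change and the median was -0.09. In the small subunit 2 of 29 fell (6.90%), 19 had a negative one and the median was -0.07. Without M15 the medians were -0.03 and -0.01. The difference between the subunits was not tested, since genes of the same tumours are not replicates.

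Summed over genes, the subunits kept nearly the same proportion in every tumour. MRPL genes took 5379 ± 337 CPM, here without TMM, with MSC (4850 to 5685) and 5758 ± 171 without (5555 to 5942). MRPS genes took 2609 ± 145 with MSC (2391 to 2751) and 2813 ± 130.3 without (2636 to 2946). The ranges overlapped in both. The ratio of the MRPL to the MRPS sum was 2.08 in M1, 2.11 in M6, 2.05 in M7, 2.03 in M10 and 2.04 in M15, and 1.98 in A9, 2.11 in A11, 2.02 in A12 and 2.08 in A13. The means, 2.06 ± 0.034 and 2.05 ± 0.056, differed by less than the SD of either group. This depended on the most counted gene of each subunit, MRPL14 and MRPS10: without them the ratio was 2.25 ± 0.025 with MSC (2.23 to 2.29) and 2.30 ± 0.0087 without (2.29 to 2.31), so that the direction turned and the means differed by more than either SD, while M6 still lay above A12. The difference was not tested. Together the 76 genes took 0.724% to 0.842% of gene counts with MSC and 0.819% to 0.880% without, lowest in M10.

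**Figure D3:**
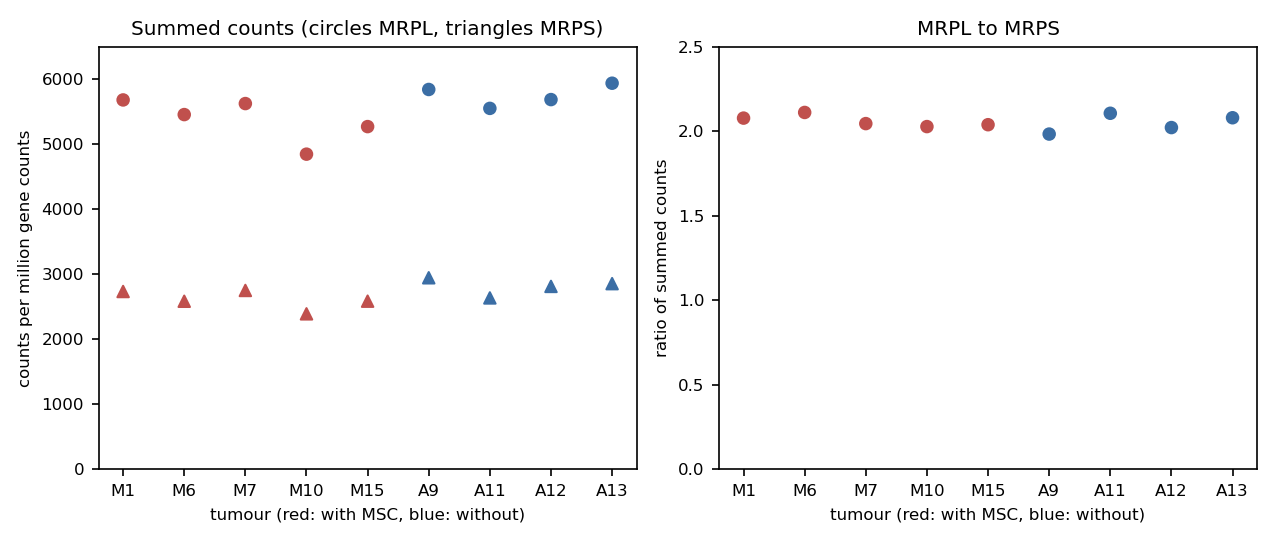
Counts summed over MRPL genes (circles) and MRPS genes (triangles), in CPM without TMM, in each tumour, and the ratio of the sums, red with MSC and blue without. MRPL sums run from 4850 to 5942 and MRPS sums from 2391 to 2946, while the ratio stays between 1.98 and 2.11.

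Many of the genes were low in the same tumours, M15 and M10. The median difference from the gene's mean over the 9 tumours, on the scale of log2 (CPM + 0.5), was -0.28 in M15 and -0.15 in M10, and 0.06 to 0.07 in the other tumours with MSC. It was 0.01 to 0.11 in the 4 tumours without MSC. M15 was the lowest of the 9 tumours for 48 of the 76 genes, against 14.3% of all genes tested, and M10 for 13, against 6.03%. This order depended on the scaling: in CPM without TMM, M10 was the lowest for 35 genes, against 10.3% of all genes, and M15 for 9, against 2.7%. No member was highest of the 9 tumours in M10 or M15, while 18 were highest in A9, 14 in M1 and 14 in A12. The shares of all genes highest in each tumour were not computed, so these counts of highest tumours are a description only. Respiratory chain genes, described below, were also lowest in M10 and M15, at 1.51% and 1.58% of gene counts. The other tumours were at 1.69% to 1.92%. Cytosolic ribosomal protein genes took 13.8% in M15 and 18.4% in M10, against 15.9% to 19.1% in the other tumours. M15 is the tumour with the highest fibroblast markers and TMM factor, given above, and M10 is the tumour with the highest sums of cancer line markers (16055 CPM, against 9519 to 12608 in the others) and immune markers (208 CPM, against 94.2 to 191). The part of these values in the low levels of M15 and M10 was not tested.

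**Figure D4:**
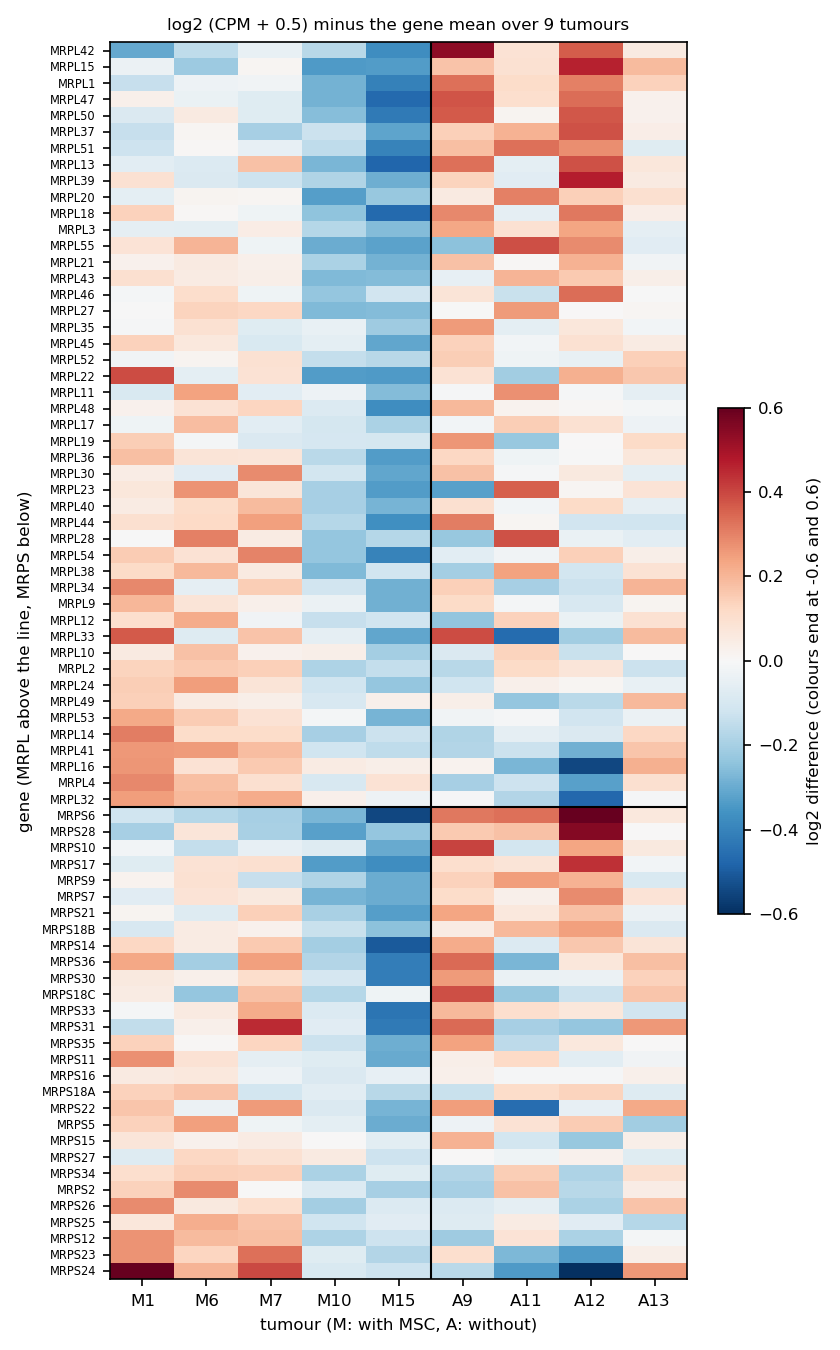
Log2 (CPM + 0.5) of each gene minus its mean over the 9 tumours, MRPL genes above the line and MRPS genes below, each sorted by fold change, tumours with MSC (M) on the left. The column of M15 is blue for most genes (median -0.28), M10 less so (median -0.15), and the strongest reds at the top of each block are in A9 and A12.

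Fold changes of these genes were lower where the GC content of the transcripts was lower, as over all genes. Spearman's rho across genes, which are not independent replicates and share all 9 libraries, was 0.52 over the 76 genes, 0.52 in MRPL and 0.51 in MRPS genes, and 0.31 over all tested genes with a known GC content. With transcript length it was -0.04 and 0.04. Of the 35 members under 50% GC, 31 had a negative log2 fold change, the median was -0.14 and 5 fell; of the 41 at 50% or more, 23 had a negative one, the median was -0.01 and MRPL37 fell. Over all tested genes under 50% GC and at 50% or more, 61.5% and 36.1% had a negative log2 fold change. Their medians were -0.08 and 0.10, and 5.80% and 1.53% fell.

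With offsets for GC content and length in each library, 3 members fell: MRPS6 (-0.51, adjusted p = 0.00829), MRPL37 (-0.37, adjusted p = 0.0219) and MRPL42 (-0.29, adjusted p = 0.0404). MRPL32 rose (0.41, above). The shares of all genes were then 2.82% lower and 3.66% higher. The medians were -0.11 in MRPL and -0.03 in MRPS genes.

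**Figure D5:**
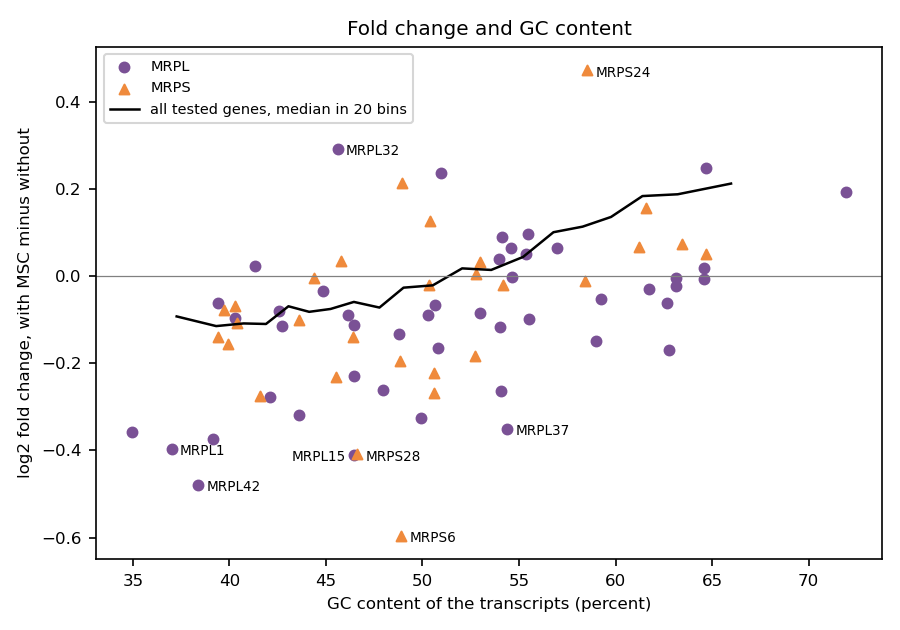
Log2 fold change (with MSC minus without) against the GC content of the transcripts for the 76 genes, circles MRPL and triangles MRPS, with the median of all tested genes in 20 bins of GC content as a line. Points and line rise from left to right (rho 0.52 over the 76 genes), and MRPS6, MRPL42, MRPL1, MRPL15, MRPL37 and MRPS28 lie below the line.

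Levels per transcript length, in CPM per kilobase over the 9 tumours, spread over a 58.3-fold range although the proteins join a ribosome in single copies with few exceptions. The median was 122 in MRPL and 71.8 in MRPS genes. Highest were MRPL51 at 525, MRPL33 (bL33m) at 391 and MRPL52 (mL52) at 299. Lowest in the large subunit were MRPL44, a protein of the RNase III fold, at 16.7, MRPL22 of the tunnel wall at 19.2 and MRPL50 at 22.2. In the small subunit MRPS6 at 185, MRPS10 at 179 and MRPS34 at 162 were highest, and MRPS31 at 9.01, MRPS9 at 17.6 and MRPS14 at 21.3 lowest. By group, MRPS6 was at 150.5 CPM per kilobase with MSC, below MRPS34 (165) and MRPS10 (164), and at 228 without MSC, above MRPS10 (198) and MRPS34 (159). The lengths are medians over annotated transcripts, so a gene with long minor transcripts has a low value.

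Fold changes of the other genes at either end of this order did not pass, and the log2 values, with MSC minus without, were 0.02 for MRPL33, -0.10 for MRPL52, -0.03 for MRPL44 and -0.10 for MRPL22. In the small subunit they were 0.05 for MRPS34, -0.08 for MRPS31, -0.23 for MRPS9 and -0.16 for MRPS14. The smallest adjusted p among these 8 was 0.250, for MRPS9.

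RefSeq's systematic names mark 44 of the genes as shared with bacteria and 29 as mitochondria-specific, with 3 unnamed. These classes follow the name and not descent: the second holds MRPS18A and MRPS18B, described below. Of the first class, 3 fell (MRPS6, MRPL15 and MRPL1, 6.82%) and the median log2 fold change was -0.08. Of the second, 2 fell (MRPL42 and MRPL37, 6.90%) and the median was -0.07. The share of all genes tested that fell was 3.6%, and neither class was tested against it. MRPS28, MRPS24 and MRPS36 had no systematic name in the table.

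Several symbols do not match the place of the protein, and none of these genes passed. MRPS18A, MRPS18B and MRPS18C descend from a single bacterial S18 gene. MRPS18C encodes the protein in the place of bacterial S18, beside that of MRPS6, and was at 42.9 ± 4.93 CPM with MSC and 46.1 ± 9.20 without (log2 -0.11 ± 0.13, adjusted p = 0.654). MRPS18B, systematic name mS40, was at 141 ± 11.9 and 160.4 ± 16.4 CPM (log2 -0.18 ± 0.10, adjusted p = 0.280). MRPS18A is named mL66, a large subunit protein, and was at 72.04 ± 7.69 and 72.7 ± 6.76 CPM (log2 -0.01 ± 0.11, adjusted p = 0.963). In MRPS18A 47.0% and in MRPS18C 40.2% of exonic bases are also exon of another gene, RSPH9 and ABRAXAS1.

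MRPS30 is named mL65 and also belongs to the large subunit, and was at 40.6 ± 5.57 and 44.7 ± 4.54 CPM (log2 -0.14 ± 0.12, adjusted p = 0.508). MRPS36, which RefSeq now lists as KGD4, is a part of the 2-oxoglutarate dehydrogenase complex of the citric acid cycle. It was at 83.5 ± 17.0 CPM with MSC and 92.0 ± 15.95 without (log2 -0.14 ± 0.14, adjusted p = 0.582). With MRPS18A and MRPS30 counted in the large subunit and MRPS36 left out, the medians were -0.09 over 49 genes and -0.04 over 26.

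Genes for proteins of the stalk that receives translation factors differed little in CPM. MRPL12, the counterpart of bacterial L7/L12, which also binds the mitochondrial RNA polymerase, was at 245 ± 26.5 CPM with MSC and 242 ± 27.2 without (log2 0.02 ± 0.11, adjusted p = 0.938). MRPL10, on which it is anchored, was at 93.3 ± 8.67 and 90.8 ± 7.61 CPM (log2 0.04 ± 0.10, adjusted p = 0.854). MRPL11, at the base of the stalk, was at 164 ± 21.3 and 175 ± 19.2 CPM (log2 -0.09 ± 0.11, adjusted p = 0.665). Differences of these sizes are under 1 SE, and the smallest change that the test could find is limited by the group sizes. In simulated data for this comparison 30 of 68 genes with a 1.5-fold change were called, and 44 of 66 with a 2-fold change. The simulation covered 13243 genes, so these shares do not give the power for the stalk genes. The median SE was 0.114 in mitochondrial ribosomal protein genes, against 0.148 over all genes tested. Among the former, MRPL37 passed at a log2 fold change of -0.35.

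Few genes that work with the mitochondrial ribosome passed, to be read beside the 3.6% of all genes that fell and the 4.18% that rose. A list of 8 genes held ribosomal proteins with other symbols and OXA1L, the insertase of the inner membrane that binds the ribosome, and none passed. The smallest p belonged to OXA1L (log2 0.22 ± 0.11, adjusted p = 0.244) and to ICT1, a peptidyl-tRNA hydrolase built into the large subunit (log2 -0.18 ± 0.12, adjusted p = 0.346). Of 24 assembly factors 1 fell and none rose, with a median of -0.10. It was TRUB2, a pseudouridine synthase, at 43.9 ± 6.38 CPM with MSC and 59.7 ± 11.3 without (log2 -0.44 ± 0.13, adjusted p = 0.0454). TRUB2 did not pass in 11 of the 18 other settings, among them GC offsets, limma-voom and leaving out M1, M7, M10, M15, A11 or A12 in turn.

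Of 16 tested translation factors none passed, with a median of -0.13. LRPPRC, which binds and stabilises mitochondrial messenger RNA, was at -0.34 ± 0.11 (adjusted p = 0.0612), and C12orf65, a factor that rescues stalled ribosomes, at -0.33 ± 0.11 (adjusted p = 0.0643). Of 12 genes for transcription and replication of mitochondrial DNA none passed either, with a median of -0.15. MTERF, a termination factor, was at -0.57 ± 0.19 (adjusted p = 0.0722) and C10orf2, the helicase Twinkle, at 0.36 ± 0.14 (adjusted p = 0.125).

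Of 9 regulators of mitochondrial biogenesis, MYC rose and none fell. It was at 160.0, 213, 176, 185 and 162 CPM with MSC and at 136, 128, 121 and 134 CPM without, in the order of tumours used above. The groups did not overlap (log2 0.47 ± 0.11, adjusted p = 0.0132), and the call was lost without A12 (highest adjusted p 0.0658). Of 24 import genes TIMM44, which ties the import motor to the inner membrane channel, rose (log2 0.50 ± 0.13, adjusted p = 0.0240), and none fell. TIMM44 did not pass in 6 of the 18 other settings, among them GC offsets and leaving out M1, A9, A11 or A12 in turn.

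Respiratory chain genes, nuclear-encoded partners of the subunits that the mitochondrial ribosome makes, had 8 falls and 1 rise among 78 tested, with a median of -0.11. Among the falls were NDUFC1 (log2 -0.47 ± 0.11, adjusted p = 0.0148) and NDUFB1 (log2 -0.51 ± 0.12, adjusted p = 0.0168), both of complex I, and ATP5J, a coupling factor of ATP synthase (log2 -0.51 ± 0.12, adjusted p = 0.0177). The rise was CYC1, cytochrome c1 of complex III (log2 0.49 ± 0.12, adjusted p = 0.0197). Without A12 none of these 4 passed, the adjusted p being 0.071 for NDUFC1, 0.0881 for NDUFB1, 0.0863 for ATP5J and 0.102 for CYC1. None passed without A9 either, nor did CYC1 without M1, without A11 or with GC offsets. The share of falls among them was larger than that of all genes (3.6%), but was not tested against it.

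Genes for proteins of the cytosolic ribosome had the opposite sign of median. Over the 83 tested genes the median log2 fold change was 0.10, and none fell in edgeR's test, against 3.6% of all genes. A negative log2 fold change was found in 36.1% of them, against 71.1% of the mitochondrial ribosomal protein genes and 48.9% of all genes tested. The difference between these groups of genes was not tested.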

How the data were processed

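RNA pulled down with tagged ribosomes was measured in 9 tumours. The deposited values are raw counts for each gene symbol, made by the authors with CASAVA 1.8.1, TopHat 1.4.0 and HTSeq on genome build hg19, per the submitters' processing notes. Not given in the sources used here: the annotation, the HTSeq version, its strand setting and any removal of mouse reads. The kit, TruSeq RNA v2 per the labels, does not mark strand, so reads of overlapping genes on opposite strands cannot be told apart, and 41 of the 76 members overlap another gene's exons in GENCODE release 29. Lines that name no gene held 10.2% to 12.1% of counts and entered neither library sizes nor tests.

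Counts were tested with edgeR 4.0.16 in R 4.3.3 (filterByExpr, TMM, glmQLFit with robust=TRUE, glmQLFTest), with Benjamini-Hochberg adjustment over all 13458 genes and a threshold of 0.05. The groups come from the labels, which give each tumour a different mouse. They name no batch, and no pairing was used. Alternatives were DESeq2 1.42.0 and its size factors, limma 3.58.1 voom with quality weights, library size alone, no filter, a filter of 5 CPM in 4 tumours, robust=FALSE, splines (4 degrees of freedom) of GC content and log length as offsets, leaving out each tumour, and a threshold of 0.10. GC content and length, medians over GENCODE transcripts, were matched by symbol for 12877 of the genes tested (95.7%). Simulated counts for this comparison covered 13243 genes. Calls were made for 7 of 64 genes with a 1.25-fold change and for 30 of 68 with a 1.5-fold change. They were made for 44 of 66 with a 2-fold change and for 6 of 13045 with none. Counts limit the precision only by counting error, while p-values use the spread between tumours.

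The members and lists were chosen with earlier results of these data known. Named members were those past the threshold, the 6 of smallest p in each subunit, the 3 highest and 3 lowest per length in each subunit, and the S18 family, stalk proteins and members whose symbol and place differ, with, in each other list, up to 4 past the threshold or else the 2 of smallest p. Genes outside this rule are said to be so, and a result that the rule takes from the other lists is not reported here. Promoter letters come from RefSeq (GRCh38.p14), and no coordinate of the deposited build was used.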

Additional observations from a re-analysis of the deposited data

Results flagged for a closer look

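MRPL11, at the base of the factor-binding stalk, was at 203 CPM in A11, while the other 3 tumours without MSC were at 162 to 167 CPM. The gap between A11 and the nearest of them took 0.878 of the range of the group, above Dixon's critical value of 0.829 for 4 samples. Of 64 groups of values of named members looked at in this way this was the only such case; chance gives about 1 in 20 groups. The tumours with MSC had a mean of 164 ± 21.3 CPM. The test of MRPL11 between the groups did not pass (adjusted p = 0.665, edgeR).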

How the results depend on the processing

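The count of members lower with MSC was 6, and it fell to 3 with limma-voom and 3 with GC and length offsets, ran from 1 (without A9 or A12) to 9 (without A13) when each tumour was left out in turn, and was 1 without M15 and A12 together, a setting chosen after seeing the data. The count higher was 0, and 1 with the offsets (MRPL32); it ran from 0 to 1 (MRPS24, without A13) over tumours left out. Other settings gave 5 to 8 lower, or 9 with DESeq2 and 9 at an adjusted p threshold of 0.10. The share of all genes called lower moved with the setting, from 3.6% in the main test. It was 2.15% with limma-voom, 2.82% with the offsets and 0.69% (A12) to 6.4% (A13) over tumours left out. Without M15 and A12 it was 0.747%, in the other settings 2.89% to 5.81%, with DESeq2 4.38%, and 6.6% at a threshold of 0.10. The share called higher was 3.66% with the offsets and 7.31% without A13. MRPS6 passed in all 18 refits, and the medians of both subunits were negative in all of them. In CPM without TMM scaling, without the most counted gene of each subunit (MRPL14, MRPS10) the MRPL mean without MSC was 5497 and the MRPS means were 2264 with MSC and 2394 without; with MRPS18A and MRPS30 moved and MRPS36 left out the MRPS means were 2414 and 2603. The genes below changed sign under some setting, and none of them passed the threshold under any setting run. Over tumours left out the log2 fold change ran from -0.10 to 0.17 for MRPL33, -0.10 to 0.075 for MRPL44, -0.0052 to 0.12 for MRPS34, -0.22 to 0.034 for MRPS31, -0.061 to 0.029 for MRPS18A, -0.19 to 0.018 for MRPS18C, -0.0068 to 0.10 for MRPL10 and -0.051 to 0.075 for MRPL12. With the offsets it was 0.067 for MRPL44, 0.013 for MRPL22, -0.11 for MRPS34, 0.066 for MRPS31, 0.053 for MRPS18C, 0.022 for MRPS36 and -0.14 for MRPL12. With limma-voom it was -0.0079 for MRPS34, 0.0030 for MRPS18A and -0.0060 for MRPL12, and without M15 and A12 it was 0.020 for MRPL22 and 0.065 for MRPS18A. The cause of these changes was not tested. No paired analysis was possible because the groups share no replicate numbers.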

Other observations

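Pseudogenes of the family, which the symbol rule does not take, had few reads. MRPL42P5, a copy of MRPL42, had 0 to 46 counts per tumour, and MRPL45P2 had 42 to 162.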
